A study of Mus musculus with 4 samples.

Results

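The genes described here build cholesterol in the liver cell or answer to SREBP2, the transcription factor released when sterols in the endoplasmic reticulum run low. They were chosen by symbol from a fixed list, and all 29 symbols were found among the 54532 genes of the count table. The list holds 18 enzymes of synthesis, 4 regulators (Srebf2, Scap, Insig1, Insig2) and 7 genes of side branches, uptake and sterol transport (Ggps1, Stard4, Tmem97, Mylip, Npc1, Npc2, Lbr). Liver RNA of C57BL/6 mice, an inbred strain in wide laboratory use, was sequenced in 4 libraries. The libraries HFD 334 and HFD 335 carry the treatment label HFD, letters that usually stand for a high-fat diet in mouse liver studies, and the libraries I3A 303 and I3A 305 carry HFD+I3A. All 4 libraries therefore shared HFD, and I3A is given by its abbreviation alone. Below, HFD livers and I3A livers stand for the libraries of each label. The labels give no age, dose or duration and do not state that each library is 1 animal, so the p-values measure the spread between these libraries. The series title sets the question in a model of fatty liver disease.

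Cholesterol is made from acetyl-CoA through mevalonate, isoprenoid diphosphates, squalene and lanosterol. When sterols in the endoplasmic reticulum run low, the escort protein Scap carries the SREBP2 precursor to the Golgi, where it is cut, and the released fragment switches on most enzymes of the route. When sterols are plentiful, Insig proteins hold Scap back, so transcripts of the route usually move together in liver. SREBP2 binds short DNA elements near gene starts and works together with NF-Y, a factor that binds the CCAAT box.

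Upstream DNA of 4 members is shown because these are the elements through which the genes are known to be switched. The sequences come from the RefSeq promoter table (GRCm38.p6), which matched 24 of the 29 members; Fdps, Fdft1, Sqle, Stard4 and Npc1 were not matched. Each sequence reads 5′ to 3′ towards the gene's start and leaves out bases that the GENCODE annotation places in an exon. Capitals mark the sterol regulatory element form TCACNCCAC (GTGGNGTGA on the other strand), the E-box CACGTG and the CCAAT box (ATTGG on the other strand). Hmgcs1 was the single matched member with the sterol regulatory element form. Hsd17b7 and Mvk had the smallest p-values among the members, and Ebp is shown as the enzyme with the most level values; these 3 were chosen after their values were seen. The windows are chr13:119690101-119690350 on the plus strand (Hmgcs1), chr1:169969242-169969408 on the minus strand (Hsd17b7), chr5:114444061-114444268 on the plus strand (Mvk) and chrX:8193513-8193762 on the minus strand (Ebp).
Hmgcs1: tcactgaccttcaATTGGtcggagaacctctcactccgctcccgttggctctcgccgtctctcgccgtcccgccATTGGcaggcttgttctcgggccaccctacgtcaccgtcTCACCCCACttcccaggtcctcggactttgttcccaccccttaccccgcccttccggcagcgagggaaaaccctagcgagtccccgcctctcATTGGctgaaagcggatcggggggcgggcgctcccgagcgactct
Hsd17b7: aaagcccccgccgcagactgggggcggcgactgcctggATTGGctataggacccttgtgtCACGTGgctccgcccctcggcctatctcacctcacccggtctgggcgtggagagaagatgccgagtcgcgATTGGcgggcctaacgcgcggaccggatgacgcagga
Mvk: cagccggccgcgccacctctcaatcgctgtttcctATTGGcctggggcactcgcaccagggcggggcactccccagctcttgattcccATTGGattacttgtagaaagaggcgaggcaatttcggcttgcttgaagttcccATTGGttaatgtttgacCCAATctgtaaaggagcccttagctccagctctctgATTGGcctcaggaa
Ebp: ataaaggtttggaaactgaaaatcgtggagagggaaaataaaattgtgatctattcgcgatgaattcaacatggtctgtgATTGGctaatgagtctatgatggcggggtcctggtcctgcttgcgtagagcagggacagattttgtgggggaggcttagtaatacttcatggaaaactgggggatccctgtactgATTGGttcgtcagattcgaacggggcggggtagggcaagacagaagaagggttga
Distances count from the start in the RefSeq promoter table. For Hmgcs1 and Hsd17b7 this start differs from the gene coordinates given below, and the printed Hsd17b7 sequence ends 37 bases before it. In Hmgcs1 the element TCACCCCAC begins 137 bases before the start, between CCAAT boxes that begin 176 and 45 bases before the start. Hsd17b7 shows an E-box 143 bases before the start, next to a CCAAT box at 165 bases. Mvk shows 5 CCAAT boxes within 173 bases of its start, and the window begins next to an exon of Mmab, a neighbour that is read in the opposite direction. The Hsd17b7 window likewise begins next to an exon of a neighbour read in the opposite direction, 3110045C21Rik. Ebp shows 2 CCAAT boxes, at 170 and 55 bases.

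Over the 250 bases before the start, CCAAT boxes lay in 22 of the 24 matched members and in 14 of the 15 matched enzymes. A gene was counted if any of its promoters held a match. By comparison they lay in 40.4% of the 9857 tested genes with a promoter in the table and in 37.5% of all 27025 genes in it. The E-box lay in 5 of the 24 members (Hsd17b7, Dhcr7, Insig1, Scap and Sc5d), in 9.96% of the tested genes and in 6.86% of all genes. The sterol regulatory element form lay in 1 of the 24 members, in 1.34% of the tested genes and in 1.22% of all genes. SREBPs are known to bind variants of these letters, and a gene can have several starts, so these matches describe the windows only.

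Enzyme transcripts of the route were mostly more abundant in the I3A livers. All 18 enzymes had log2 fold changes (I3A minus HFD) above 0, from 0.01 for Ebp to 2.31 for Fdps, with a median of 1.10, beside a median of -0.01 over the 13403 tested genes, of which 48.5% lay above 0; with library totals in place of TMM scaling Ebp alone among the enzymes was negative (-0.084). A log2 fold change of 1 or more was reached by 10 of the 18 enzymes and by 2.46% of tested genes. Over all 29 members the median was 0.69, with 27 values above 0 (25 with library totals, where Ebp and Npc2 turned negative); Mylip and Ggps1 lay below. All 29 members passed the filter on low counts.

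By edgeR's quasi-likelihood test with Benjamini-Hochberg adjustment over all tested genes, 0 of the 29 members passed an adjusted p of 0.05 in either direction, and neither did any other gene (0% of tested genes). The members' adjusted p ran from 0.214 to 0.982. At an unadjusted p under 0.05, 13 members were higher in I3A livers, where 6.66% of all tested genes were, and 0 were lower, where 6.24% of tested genes were. With library totals in place of TMM scaling, 10 members were higher, beside 4.31% of tested genes higher and 9.92% lower. DESeq2 called 5 members higher at an adjusted p under 0.05, where it called 1.81% of the genes it adjusted higher and 1.54% lower. These were Hsd17b7 (adjusted p = 0.000811), Dhcr7 (0.00193), Lss (0.0127), Mvk (0.0135) and Pmvk (0.0159). Fdps was given no adjusted p by DESeq2 with all libraries, so it could not be called there. limma-voom called 0 members, with 12 higher at an unadjusted p under 0.05 (6.58% of tested genes). With no filter on low counts, edgeR's test called 13 members higher at an adjusted p under 0.05, where 0.962% of 24119 genes were called higher. With 2 libraries a group, the smallest p that exact permutation of 1 gene's values can give is 0.333.

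**Figure D1:**
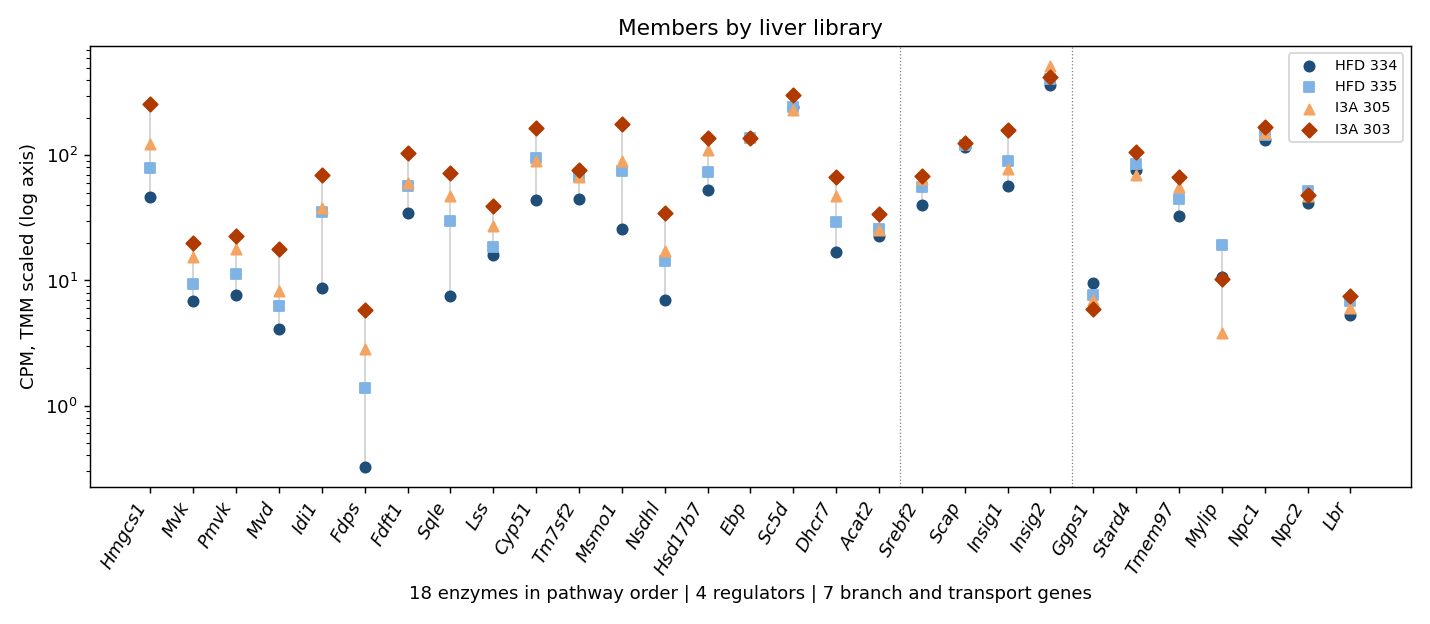
CPM of each member in each library on a log axis, with 18 enzymes in pathway order, then 4 regulators and 7 branch and transport genes. HFD 334 is the lowest point and I3A 303 the highest for most enzymes, whereas the Ebp points lie on top of one another.

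CPM gives a gene's reads relative to its library's total, adjusted by TMM, edgeR's scaling for composition. Values after ± are standard errors of the log2 fold change unless called SD, and adjusted p are those of edgeR's quasi-likelihood test over all 13403 tested genes unless DESeq2 is named. The first steps lead from acetyl-CoA to isopentenyl diphosphate. Hmgcs1, which makes HMG-CoA from acetoacetyl-CoA and acetyl-CoA (chromosome 13, 119690379 to 119708260, plus strand), measured 46.7 CPM in HFD 334, 78.6 in HFD 335, 124 in I3A 305 and 259 in I3A 303. Both I3A livers lay above both HFD livers, and I3A 303 held 2.10 times the level of I3A 305. The group means were 62.7 ± 22.6 CPM in HFD and 191 ± 95.6 CPM in I3A (SD, n = 2), a log2 fold change of 1.61 ± 0.41 (SE, adjusted p = 0.261). Acat2, the cytosolic thiolase that supplies acetoacetyl-CoA, differed less (0.29 ± 0.17, adjusted p = 0.524), and its groups overlapped.

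Mvk, the kinase that first phosphorylates mevalonate (chromosome 5, 114444269 to 114460591, plus strand), measured 6.83 and 9.40 CPM in HFD 334 and HFD 335 and 15.3 and 19.9 CPM in I3A 305 and I3A 303. The gap between the groups was wider than the gap within either group. Its log2 fold change was 1.11 ± 0.23 (adjusted p = 0.218). Pmvk, the next kinase, read 7.61 and 11.3 CPM in HFD 334 and HFD 335 against 17.8 and 22.7 CPM in I3A 305 and I3A 303, with a log2 fold change of 1.09 ± 0.24 (adjusted p = 0.237). The order of the 4 libraries was the same as for Mvk. Mvd, the decarboxylase that yields isopentenyl diphosphate, measured 4.10 and 6.25 CPM in HFD 334 and HFD 335 and 8.25 and 17.8 CPM in I3A 305 and I3A 303 (1.33 ± 0.42, adjusted p = 0.329). Here I3A 303 stood apart from the other libraries.

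Isoprenoid units are next joined to squalene. Idi1, which isomerises isopentenyl diphosphate, varied 4.03-fold between the HFD livers (8.72 CPM in HFD 334, 35.1 CPM in HFD 335), while HFD 335 and I3A 305 (37.6 CPM) were nearly level and I3A 303 reached 69.2 CPM. Its log2 fold change of 1.28 ± 0.64 (adjusted p = 0.459) became 2.61 without HFD 335 and 0.60 without HFD 334. Fdps, which makes farnesyl diphosphate, was counted at 5 reads in HFD 334, 23 in HFD 335, 49 in I3A 305 and 91 in I3A 303. Its log2 fold change of 2.31 ± 0.71 (adjusted p = 0.322) rests on these few reads, and was 3.71 without HFD 335 and 1.63 without HFD 334. A gene on the same strand, Gm43738, overlaps 1124 exon bases of Fdps and was listed at 0 counts, and the treatment of reads shared by several genes or copies is not recorded in the labels, so the Fdps level is uncertain.

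Fdft1, the squalene synthase, measured 34.8 and 57.3 CPM in HFD 334 and HFD 335 and 59.5 and 105 CPM in I3A 305 and I3A 303 (log2 fold change 0.83 ± 0.34, adjusted p = 0.389). HFD 335 and I3A 305 were close together. Its exons share 774 bases with Ctsb on the opposite strand, a gene with 21797 counts over the 4 libraries against 4136 for Fdft1, and nothing in the labels says that strand was kept. Sqle, the squalene epoxidase and a slow step of the route, gave 7.55 and 29.6 CPM in HFD 334 and HFD 335 and 47.3 and 71.7 CPM in I3A 305 and I3A 303. The groups did not overlap, but HFD 335 held 3.92 times the level of HFD 334, and the log2 fold change was 1.67 ± 0.59 (adjusted p = 0.349). It was 2.98 without HFD 335 and 1.01 without HFD 334.

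Lanosterol is formed and trimmed in the next steps. Lss, which closes the sterol rings (chromosome 10, 76531588 to 76557138, plus strand), measured 16.1 and 18.6 CPM in HFD 334 and HFD 335 and 27.4 and 39.4 CPM in I3A 305 and I3A 303. Its HFD livers were close to each other and both lay below the I3A livers (0.94 ± 0.20, adjusted p = 0.234). Cyp51, the lanosterol demethylase, had overlapping groups: HFD 335, at 94.5 CPM, lay above I3A 305, at 89.2 CPM, and the log2 fold change was 0.87 ± 0.43 (adjusted p = 0.458). Exons of Cyp51 share 166 bases with Akap9 on the opposite strand. The sterol reductase Tm7sf2 differed by 0.36 ± 0.20 (adjusted p = 0.492), and Lbr, the lamin B receptor, which carries the same reductase activity, by 0.14 ± 0.25 (adjusted p = 0.848).

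The demethylation enzymes Msmo1, Nsdhl and Hsd17b7 were all higher in both I3A livers than in both HFD livers. Msmo1, the methylsterol oxidase, measured 25.7 and 74.3 CPM in HFD 334 and HFD 335 and 90.0 and 177 CPM in I3A 305 and I3A 303 (1.41 ± 0.55, adjusted p = 0.373). Nsdhl, the sterol dehydrogenase, read 6.96 and 14.4 CPM in HFD 334 and HFD 335 and 17.3 and 34.7 CPM in I3A 305 and I3A 303 (1.28 ± 0.45, adjusted p = 0.349). In both genes I3A 305 lay nearer to HFD 335 than to I3A 303. Hsd17b7, the ketosteroid reductase of this step (chromosome 1, 169949535 to 169969241, minus strand), measured 52.8 and 73.4 CPM in HFD 334 and HFD 335 and 111 and 137 CPM in I3A 305 and I3A 303. It had the smallest p among the members (0.97 ± 0.19, adjusted p = 0.214).

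The last steps differed among themselves. Ebp, the sterol isomerase (chromosome X, 8185329 to 8193512, minus strand), was nearly constant, at 139 and 139 CPM in the HFD livers and 138 and 141 CPM in the I3A livers (0.01 ± 0.09, adjusted p = 0.982). Sc5d, the desaturase after it, measured 245 and 242 CPM in HFD 334 and HFD 335 and 231 and 304 CPM in I3A 305 and I3A 303 (0.14 ± 0.15, adjusted p = 0.738). Dhcr7, which completes cholesterol by the last reduction, measured 16.9 and 29.4 CPM in HFD 334 and HFD 335 and 47.1 and 66.7 CPM in I3A 305 and I3A 303. Both I3A livers lay above both HFD livers, and the log2 fold change was 1.29 ± 0.30 (adjusted p = 0.242).

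**Figure D2:**
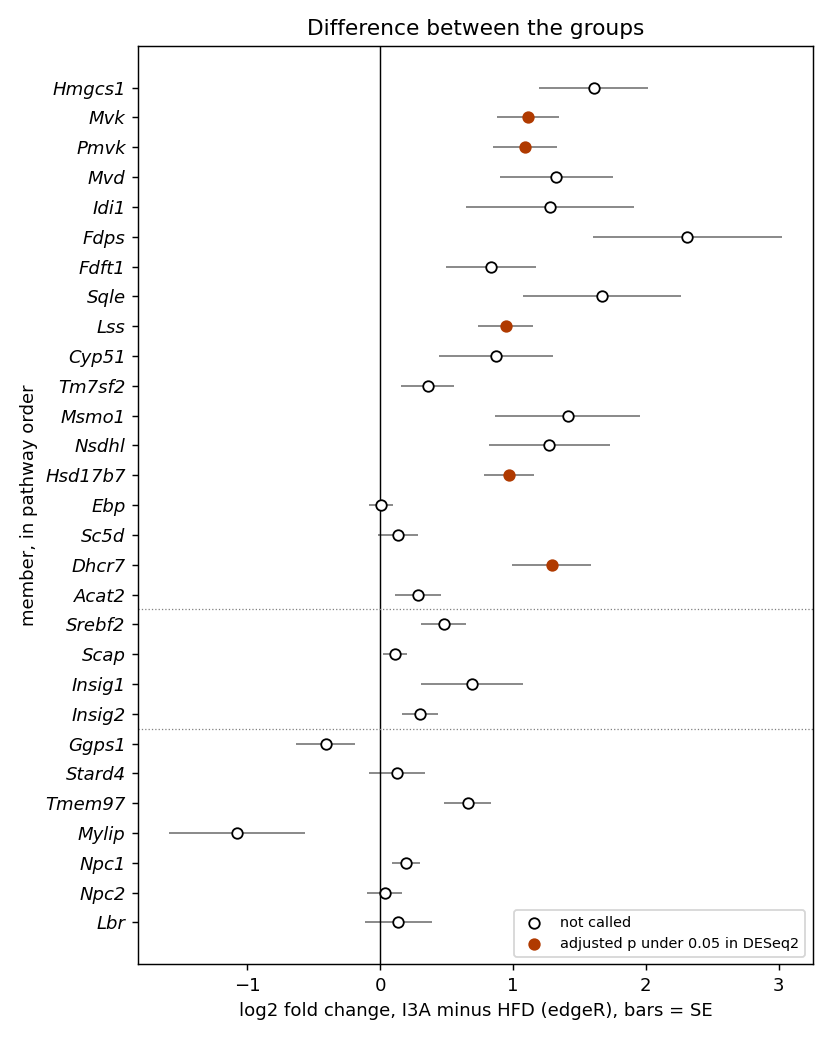
Log2 fold change of each member (I3A minus HFD, edgeR) with its standard error, in pathway order. Filled points are the 5 members called higher by DESeq2. Fdps, drawn open, was given no adjusted p by DESeq2. All 18 enzymes lie at or to the right of 0, with Ebp at 0.01 (-0.084 with library total scaling).

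Levels per transcript length, in TPM (read counts over gene length, scaled to a common total) from the counts and the table's gene lengths, set these enzymes in order. In HFD livers Ebp stood highest among the enzymes at 140 ± 1.05 TPM (SD, n = 2), followed by Sc5d at 116 ± 1.63 TPM. Next came Cyp51 (36.4 ± 18.8 TPM), Hmgcs1 (31.7 ± 11.3 TPM) and Hsd17b7 (28.7 ± 6.53 TPM), which did not differ beyond their spread. Ebp and Sc5d, the enzymes with the highest levels, were also among the 4 enzymes with the smallest differences between the groups, together with Acat2 and Tm7sf2. In I3A livers Hmgcs1 averaged 93.7 ± 48.6 TPM, below Ebp at 135 ± 0.578 TPM. The 18 enzymes together held 444 and 583 TPM in HFD 334 and HFD 335 and 631 and 943 TPM in I3A 305 and I3A 303.

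The 4 libraries formed a graded series rather than 2 tight groups. For 14 of the 18 enzymes, and 17 of the 29 members, CPM increased from HFD 334 through HFD 335 and I3A 305 to I3A 303, an order found in 4.30% of tested genes. I3A 303 was the highest library for 23 members (20.6% of tested genes) and HFD 334 the lowest for 24 (23.6% of tested genes). These counts were chosen after the values were seen. The median enzyme ratio was 1.59 between HFD 335 and HFD 334 and 1.48 between I3A 303 and I3A 305. It was 3.38 between the outer libraries I3A 303 and HFD 334, but 1.27 between the inner libraries I3A 305 and HFD 335. Over all tested genes the medians of those ratios lay between 0.989 and 1.01.

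The mean log2(CPM + 1) over the enzymes was 4.35 in HFD 334, 5.08 in HFD 335, 5.41 in I3A 305 and 6.02 in I3A 303. The difference of 0.997 between the group means thus compares with 0.73 between HFD 335 and HFD 334 and 0.61 between I3A 303 and I3A 305. The groups did not overlap, with I3A above HFD, for 19 of 29 members, where this held for 23.1% of tested genes. With library totals in place of TMM scaling the count was 14, beside 15.7% of tested genes. I3A lay below HFD for Ggps1 and Mylip (22.5% of tested genes), and with library totals also for Ebp (32.7%).

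**Figure D3:**
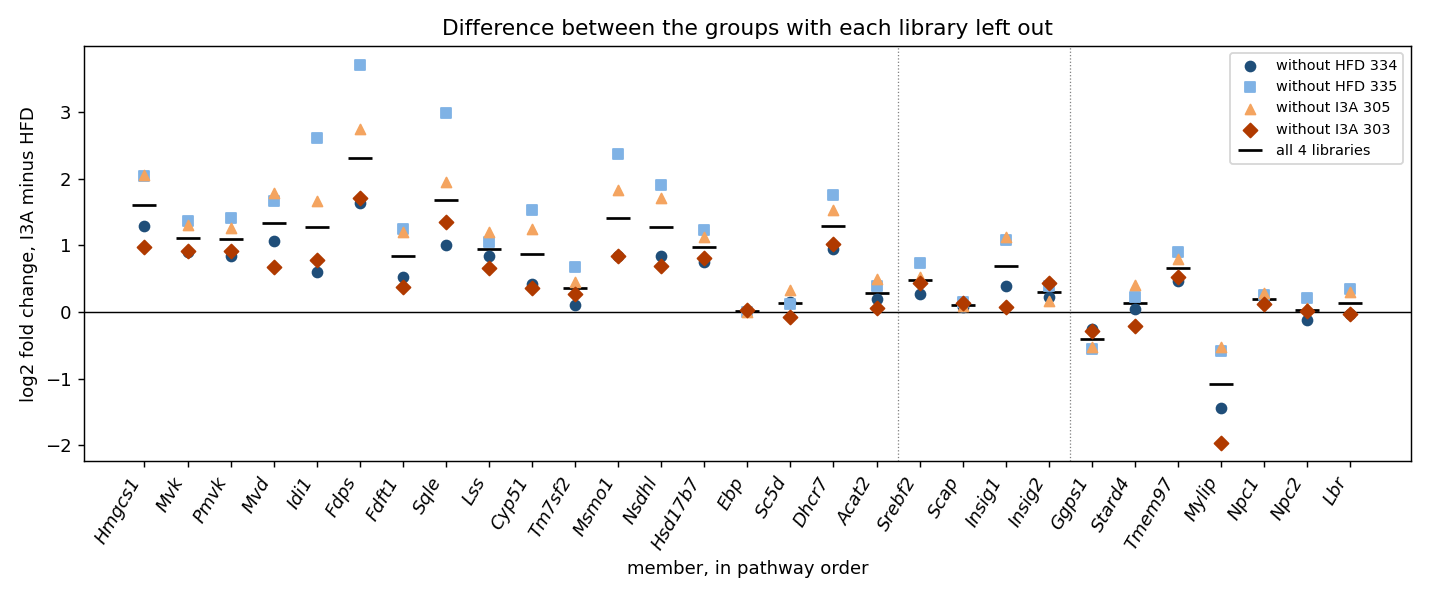
Log2 fold change of each member (I3A minus HFD, edgeR) with all 4 libraries (dashes) and with each library left out (points). The values spread most for Fdps, Idi1 and Sqle, from 1.63 to 3.71, 0.60 to 2.61 and 1.01 to 2.98, and less for Mvk, from 0.90 to 1.36, and Hsd17b7, from 0.75 to 1.23.

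Leaving out single libraries changed the sizes more than the directions. Each such fit has 1 library in an arm, which is assumed to vary like the 2 libraries of the other group, and these give all of the spread. The enzyme median was 1.47 without HFD 335, 1.28 without I3A 305, 0.84 without HFD 334 and 0.73 without I3A 303. Cyp51 ran from 0.36 and Fdft1 from 0.37, both without I3A 303, to 1.53 and 1.24 without HFD 335. Msmo1 ran from 0.84 without HFD 334 to 2.37 without HFD 335, and Nsdhl from 0.68 without I3A 303 to 1.90 without HFD 335. Hmgcs1 and Mvd were 0.98 and 0.67 without I3A 303 and 2.05 and 1.79 without I3A 305. Without I3A 303, 7 members were higher at an unadjusted p under 0.05 (5.80% of tested genes), 6 of them among the 13: Hmgcs1, Mvk, Pmvk, Lss, Hsd17b7 and Dhcr7. Insig2 was the seventh. Without HFD 335, 18 members were higher (5.47% of tested genes), including all 13. In DESeq2 without HFD 335, where the spread likewise comes from the I3A livers alone, 8 members were called higher (0.625% of the genes it adjusted), of which Pmvk, Hsd17b7 and Dhcr7 were also among its 5 with all libraries. The others were Idi1, Fdps, Fdft1, Sqle and Nsdhl, in which HFD 335 held 1.65 to 4.29 times the level of HFD 334. Ratios in that range were also found in Msmo1 (2.89), Cyp51 (2.16) and Hmgcs1 (1.68), which were not called.

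The 4 regulators had log2 fold changes from 0.11 to 0.69, beside the enzyme median of 1.10. Srebf2, which encodes SREBP2 (chromosome 15, 82147181 to 82205379, plus strand), measured 40.0 and 55.6 CPM in HFD 334 and HFD 335 and 65.0 and 68.6 CPM in I3A 305 and I3A 303. The I3A livers were close to each other and above both HFD livers (0.48 ± 0.17, adjusted p = 0.348). Scap, the escort of SREBP2, was almost level at 116 and 122 CPM in HFD 334 and HFD 335 and 130 and 125 CPM in I3A 305 and I3A 303 (0.11 ± 0.09, adjusted p = 0.649).

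The Insig genes had different library patterns. Insig1, itself a known SREBP target, measured 56.6 and 90.8 CPM in HFD 334 and HFD 335 and 77.7 and 160 CPM in I3A 305 and I3A 303. Its groups overlapped, and the log2 fold change of 0.69 ± 0.38 (adjusted p = 0.492) was 0.07 without I3A 303. Insig2 measured 361 and 403 CPM in HFD 334 and HFD 335 and 517 and 425 CPM in I3A 305 and I3A 303, so here I3A 305 was the highest library (0.30 ± 0.14, adjusted p = 0.424). Per length Insig2 stood above every other member, at 256 ± 19.1 TPM (SD, n = 2) in HFD and 304 ± 35.6 TPM in I3A livers, whereas Insig1 measured 42.6 and 68.1 TPM in HFD 334 and HFD 335 and 55.5 and 118 TPM in I3A 305 and I3A 303.

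Among the genes of uptake and transport, Tmem97, an endoplasmic reticulum protein that binds NPC1, followed the enzymes most closely. It measured 32.9 and 44.6 CPM in HFD 334 and HFD 335 and 55.8 and 66.8 CPM in I3A 305 and I3A 303 (0.66 ± 0.18, adjusted p = 0.283). Npc1, the sterol exporter of the lysosome, measured 133 and 145 CPM in HFD 334 and HFD 335 and 151 and 168 CPM in I3A 305 and I3A 303 (0.20 ± 0.11, adjusted p = 0.476). Its soluble partner Npc2 differed by 0.03 ± 0.13 (adjusted p = 0.937), and Stard4, a sterol carrier of the cytosol, by 0.13 ± 0.21 (adjusted p = 0.830). With single libraries left out, Stard4 ran from -0.21 (without I3A 303) to 0.41 (without I3A 305), Npc2 from -0.12 to 0.20 and Npc1 from 0.12 to 0.28.

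Mylip and Ggps1 ran the other way. Mylip, the ubiquitin ligase that marks lipoprotein receptors for breakdown and a known target of the oxysterol receptor LXR, measured 10.6 and 19.2 CPM in HFD 334 and HFD 335 and 3.83 and 10.4 CPM in I3A 305 and I3A 303. HFD 334 and I3A 303 were nearly level, while I3A 305 held 0.200 times the level of HFD 335, and the log2 fold change was -1.08 ± 0.51 (adjusted p = 0.443). It was -1.96 without I3A 303, -1.44 without HFD 334, -0.59 without HFD 335 and -0.52 without I3A 305. Ggps1, which makes geranylgeranyl diphosphate for protein prenylation, differed by -0.41 ± 0.22 (adjusted p = 0.485). Its exons overlap Arid4b on the opposite strand, which held 1780 counts against 486.

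**Figure D4:**
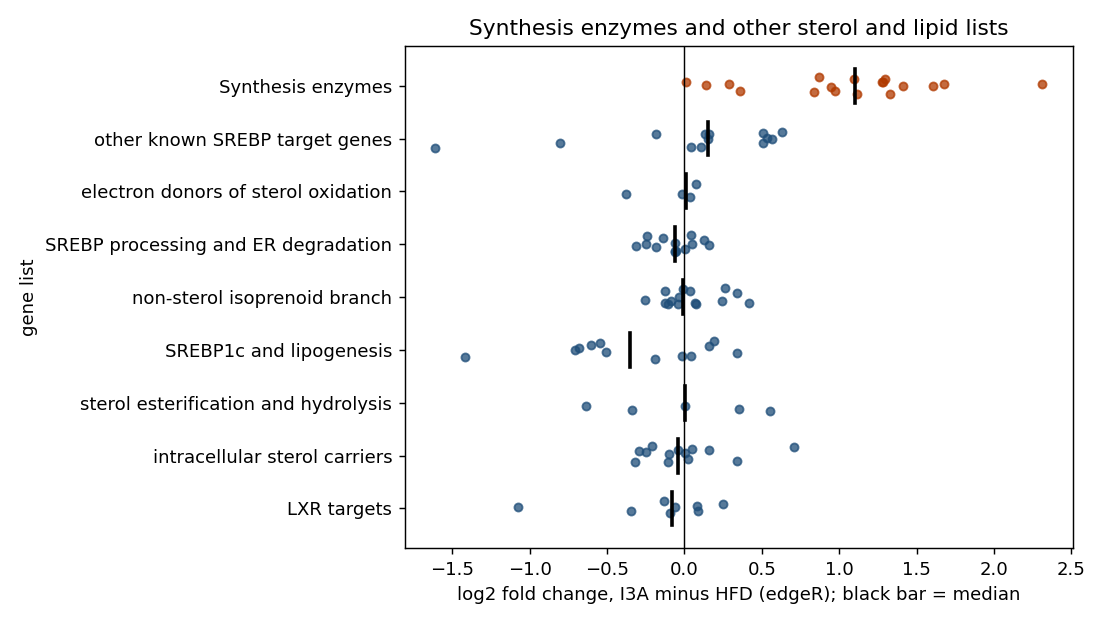
Log2 fold changes (I3A minus HFD, edgeR) of the 18 synthesis enzymes and of the tested genes of 8 other sterol and lipid lists, 1 point a gene, with the median as a black bar. The enzymes centre on 1.10 and the other lists between -0.35 and 0.15.

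Medians of the other sterol and lipid lists lay nearer to 0 than the enzyme median. In edgeR 0 genes of any of these lists passed the adjusted threshold (0% of tested genes). Of 13 further genes known as SREBP targets, a list that also holds fatty acid genes, 10 lay above 0 (48.5% of tested genes), with a median of 0.15. At an unadjusted p under 0.05 in edgeR, 4 were higher (6.66% of tested genes) and 1 lower (6.24%). The 4 were Elovl5, Acss2, Rdh11 (0.51 ± 0.15) and Erg28 (0.56 ± 0.18). DESeq2 called 1 higher and 1 lower, where it called 1.81% and 1.54% of the genes it adjusted. The same shares apply to the counts of the lists that follow. The higher call was Elovl5, an elongase of polyunsaturated fatty acids, which measured 518 and 624 CPM in HFD 334 and HFD 335 and 863 and 901 CPM in I3A 305 and I3A 303 (0.63 ± 0.13, DESeq2 adjusted p = 0.00238). The lower call was Aacs, which makes acetoacetyl-CoA from ketone bodies for sterol synthesis, at 50.1 and 53.9 CPM in HFD 334 and HFD 335 and 9.88 and 24.3 CPM in I3A 305 and I3A 303 (-1.61 ± 0.39, DESeq2 adjusted p = 0.00106). Aacs thus stood apart from the enzymes, with its I3A livers below both HFD livers. Acss2, the acetyl-CoA synthetase, had the same edgeR adjusted p as Aacs (0.252) with a log2 fold change of 0.53 ± 0.13; its exons overlap Gss on the opposite strand. Mmab, which faces Mvk across the printed window, differed by 0.51 (adjusted p = 0.504), and I3A 303 was its highest library at 28.6 CPM, beside 13.9 to 17.5 CPM in the others.

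Genes of SREBP1c and fatty acid synthesis lay mostly below 0. The list also holds Mlxipl and Pklr, and it shares Srebf1 and Acly with the further SREBP targets. Of 12 tested genes 4 were positive (median -0.35, and -0.049 without HFD 334). DESeq2 called 0, and at an unadjusted p under 0.05 in edgeR 0 were higher and 2 lower. These were Acaca, the acetyl-CoA carboxylase (-0.60 ± 0.21, adjusted p = 0.343), and Thrsp, a lipogenic regulator (-1.42 ± 0.55, adjusted p = 0.376). Electron donors of the sterol oxidases had a median of 0.01 over 4 genes, with Cyb5r3 lower (-0.38 ± 0.11, adjusted p = 0.295) and Por at 0.08 ± 0.17. The 14 genes of SREBP processing and sterol-driven protein degradation had a median of -0.06 and the 15 genes of the non-sterol isoprenoid branch a median of -0.01, with 0 at an unadjusted p under 0.05 in either list and 0 called by DESeq2. The genes with the smallest p there were Ube2g2 (-0.18 ± 0.10) in the first list, and Zmpste24 (0.26 ± 0.11) and Rce1 (0.34 ± 0.17) in the second.

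Genes that store, release and carry sterols lay on both sides of 0. Among 5 genes of esterification and hydrolysis 2 were higher and 1 lower at an unadjusted p under 0.05, and 0 were called by DESeq2. Soat2, which esterifies cholesterol, measured 29.1 and 20.6 CPM in HFD 334 and HFD 335 and 35.6 and 37.2 CPM in I3A 305 and I3A 303 (0.55 ± 0.18, adjusted p = 0.332). The lysosomal lipase Lipa was higher, at 179 and 180 CPM in HFD 334 and HFD 335 and 230 and 228 CPM in I3A 305 and I3A 303 (0.35 ± 0.09, adjusted p = 0.261), and Nceh1, a cholesteryl ester hydrolase, was lower (-0.34 ± 0.11, adjusted p = 0.329). Of 13 intracellular carriers 2 were higher at an unadjusted p under 0.05: Gramd1c, which moves cholesterol from the plasma membrane (0.71 ± 0.14, DESeq2 adjusted p = 0.0204, the single DESeq2 call of the list), and Stard5 (0.34 ± 0.10, adjusted p = 0.298). Of 8 LXR genes, a list that also holds Mylip, 1 passed an unadjusted p of 0.05, the biliary sterol exporter subunit Abcg8 (-0.34 ± 0.11, adjusted p = 0.332), whose exons overlap Abcg5.

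The libraries held 15005668 to 18255623 counts, and 1 count was worth 0.0581 to 0.0651 CPM. Sums over gene lists, here and for the acute phase genes below, are CPM scaled by library totals, without the TMM adjustment of the single genes. All 10 hepatocyte markers were present, summing to between 91720 and 99770 CPM. HFD 335 also held transcripts of other tissues: 9 skeletal muscle genes with counts summed to 800 CPM there and to 0.877 to 1.02 CPM elsewhere, with Acta1 and Ckm at 0 counts in the other 3 libraries, where 3 counts would be at most 0.195 CPM. Exocrine pancreas genes reached 190 CPM in HFD 335 and 12.1 to 25.5 CPM elsewhere. In those 3 libraries Cela1 alone read 10.8 to 24.3 CPM (TMM-scaled), and Cpa1, Pnlip and Clps were at 0 counts. The list of smooth muscle and mesothelium reached 211 CPM there and 6.09 to 8.14 CPM elsewhere. Sinusoidal endothelial genes ranged from 61.8 CPM in I3A 305 to 291 CPM in HFD 335, and all 8 were highest in HFD 335. Stellate cell genes ranged from 55.0 to 313 CPM between the same libraries. The part of these tissues in the members' values was not tested. In bulk liver, fewer cells of a type and less RNA per cell cannot be told apart.

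Values of other programmes had another order of the I3A livers. The 16 acute phase genes, plasma proteins made in inflammation, all had positive log2 fold changes (48.5% of tested genes), with a median of 1.49. DESeq2 called 13 of them higher, where it called 1.81% of the genes it adjusted higher. Scaled by library totals, they summed to 20360 and 20060 CPM in HFD 334 and HFD 335. The sums were 53980 CPM in I3A 305 and 36010 CPM in I3A 303. Saa2 and Fgl1 had the smallest p among them (7.35 ± 0.66 and 2.04 ± 0.24). Core clock genes had a median of -0.34, with 4 of 14 above 0, 1 higher and 1 lower at an unadjusted p under 0.05 and 0 called by edgeR or DESeq2, and Arntl, the clock activator, read 4.30 and 4.49 CPM in HFD 334 and HFD 335, 12.4 CPM in I3A 305 and 5.85 CPM in I3A 303 (1.06 ± 0.39, adjusted p = 0.357). Hlf, a clock output factor, differed by -0.41 ± 0.16 (adjusted p = 0.371). The acute phase sum and both clock genes departed furthest from HFD in I3A 305, whereas 25 of the 29 members were higher in I3A 303 than in I3A 305. That share was not counted over all tested genes, whose median ratio of I3A 303 over I3A 305 was 1. The part of the acute phase and clock genes in the members' values was not tested.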

How the data were processed

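RNA was taken from homogenized liver with Trizol and made into libraries with a NEBNext Ultra kit, per the labels' protocols. HISAT2 and featureCounts 1.5.0-p3 were used on GRCm38, per the submitters' processing notes. Not given in the sources used here: annotation, strand setting and handling of multi-mapping reads. The authors deposited raw counts per gene for 4 libraries, with gene lengths in bases.

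The edgeR 4.0.16 test (R 4.3.3) ran on the counts of all genes kept by filterByExpr (minimum count 10; 13403 genes), with TMM scaling and group as the single term, 2-sided, and Benjamini-Hochberg adjustment at 0.05. The biological coefficient of variation was 19.9%. Fits with a library left out kept the same genes. DESeq2 1.42.0 and limma-voom (limma 3.58.1) were alternatives, as were RLE and library total scaling, other filters, a robust fit and each library left out. Chi-square over degrees of freedom was 30.0 between the HFD and 29.4 between the I3A libraries, above sampling noise, and each counted as 1 replicate.

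The members, lists, tests and naming rule were chosen with earlier results of these data known. Library values and p are given for the 14 members with the smallest p and for Srebf2, Scap, Insig1, Insig2, Mylip and Npc1, and from each other list the 2 genes with the smallest p are named, except 1 gene that is not reported here. Values of Ebp, Sc5d, Idi1, Cyp51, Aacs, Mmab, Soat2, Rdh11 and Erg28 were added after they were seen.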

Additional observations from a re-analysis of the deposited data

How the results depend on the processing

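Most members kept their direction between settings. Of 29 members, 24 did so under every one of the alternatives run (12 settings, 11 for Fdps, which the stricter filter removed), and 8 of 347 member values reversed. The robust fit gave the same log2 fold changes as the main fit, so it could reverse none. RLE scaling and DESeq2 gave nearly the same values from the same 4 libraries. The share of all tested genes that kept their direction was not counted. With library total scaling, Ebp (-0.084) and Npc2 (-0.057) reversed. With single libraries left out, Ebp ran from -0.0023 to 0.023, Sc5d from -0.075 to 0.33, Stard4 from -0.21 to 0.41, Npc2 from -0.12 to 0.20 and Lbr from -0.036 to 0.34. Calls depended on the filter and the tool. The count of members higher at an adjusted p under 0.05 was 0 in edgeR with all libraries and also 0 with RLE or library total scaling, the robust fit, limma-voom, the stricter filter or any library left out, but 13 with no filter (0.962% of 24119 genes), 5 in DESeq2 and 8 in DESeq2 without HFD 335; the cause was not tested. At an unadjusted p under 0.05, the count of higher members ran from 7 to 18 with single libraries left out and that of lower members from 0 to 1; the 1 lower member was Mylip, which also made 1 with no filter and 1 in DESeq2. Among all genes, 6.5% were lower at that p with no filter and 5.16% in DESeq2, so 1 of 29 members is no excess there. The median over the members ran from 0.42 to 1.12 with single libraries left out and was 1.07 in DESeq2 without HFD 335. Over the other lists, 26 of 288 values, which are medians and counts of genes called, moved. A median moved if it changed by at least the pooled SD of the list's library means. The counts were 0 in the main fit, so they moved only where a setting called a gene. The E-box in place of the sterol regulatory element form gave 5 members in place of 1. No paired analysis was possible because the groups share no replicate numbers. Low counts limit Fdps most.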
